A study of Homo sapiens with 23 samples.

Results

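The regions described here are 500 clusters of closely spaced H3K27ac peaks away from promoters, the arrangement usually called a super-enhancer, in NCI-H23, an established human non-small cell lung cancer cell line. They are the largest 500 of 14603 clusters and are called members below, and the other 14103 are called other clusters. Members were selected on measured H3K27ac: intervals called in both H3K27ac replicates were kept, those within 1000 bp of an H3K4me3 peak of either replicate were dropped, the rest were stitched across gaps of up to 12500 bp, and the clusters were ranked by their H3K27ac bases. The stitched H3K27ac intervals are called constituents. H3K27ac and H3K4me3 therefore describe the choice and are not findings.

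The series used chromatin immunoprecipitation with sequencing (ChIP-seq) for BRD2 and 10 histone marks, with 2 libraries per target and 1 input library that was not analysed here. All libraries came from formaldehyde-fixed NCI-H23 cells, and per the labels the antibodies to H3K27ac, H3K4me3 and H4K5acK8ac were mouse monoclonal and the others rabbit polyclonal. The treatment protocol in the labels names the BET inhibitor JQ1 and its solvent DMSO, but no sample is tied to either one, so treatment could not be compared or separated. The labels do not say whether replicates were separate cultures, so the spread between them may be technical.

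Acetylation of lysine 27 on histone H3 marks active enhancers and promoters, H3K4me3 marks promoters, and H3K4me1 marks enhancers, active or primed. Super-enhancers are long stretches of such active chromatin, often near genes that matter for the identity of a cell or for the growth of a tumour. BRD2 belongs to the BET family, whose paired bromodomains bind acetylated lysines of histone H4, such as the tail acetylated on both lysines 5 and 8 that H4K5acK8ac denotes. BET inhibitors such as JQ1 block that binding pocket. H3K36me3 marks the bodies of transcribed genes, H3K9me3 heterochromatin, and H3K27me3 regions under Polycomb repression.

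The data are lists of peaks, with 21580 to 277462 peaks per list. Read totals are not part of them, so the depth of each library is unknown, and so is how far depth set the length of its list. The BRD2 replicates held 56830 and 45730 peaks, of which 64.7% and 28.1% had a q above 0.05 in the deposited values, while 4771 and 12491 reached a −log10 q of 5 or more. The replicates of H4K8ac also stood apart, with 224726 and 116852 peaks, and so did those of H3K4me1, with 141240 and 204854. Values are therefore given for each library. Each difference has its SD over the 2 libraries of a target, and no test, since an exact two-sided permutation test of 2 libraries against 2 cannot give a p below 0.333 and regions are not replicates. No statement below is a test of members against other clusters.

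The intersection of the H3K27ac lists held 78120 intervals, and 24866 of them (31.8%) were dropped for their distance to H3K4me3. The other 53254 intervals were stitched. Members were 3.42% of the clusters and held 13295 constituents (24.97%) and 11.2 Mb of H3K27ac, 33.7% of all constituent bases. The 10 largest members held 10.7% of the members' bases.

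Members spanned 11264 to 385535 bp with a median of 51175.5 bp, and 31.5 Mb in all. Their H3K27ac bases ranged from 10549 to 220472 with a median of 16423. The other clusters had a median span of 1369 bp and a median of 813 H3K27ac bases, and 6068 of them (43.0%) were single intervals. No member was a single interval: members held 2 to 216 constituents with a median of 20.5. The constituents covered a median of 36.6% of a member's span, a share that leaves out H3K27ac near H3K4me3 or called in 1 replicate only.

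Constituents of members were a little wider than those of other clusters, with medians of 426 and 344 bp, and the gaps between them had similar medians of 523 and 575 bp. The widest constituent of each cluster, which is part of the bases that the rule ranked on, had a median of 4687 bp in members and 535 bp in other clusters. A constituent of at least 4000 bp was present in 295 members and in 198 other clusters. H3K4me3 lay somewhere inside the span of 246 members (49.2%) and of 6.98% of other clusters, in the stretches that the rule had left out of the constituents.

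**Figure D1:**
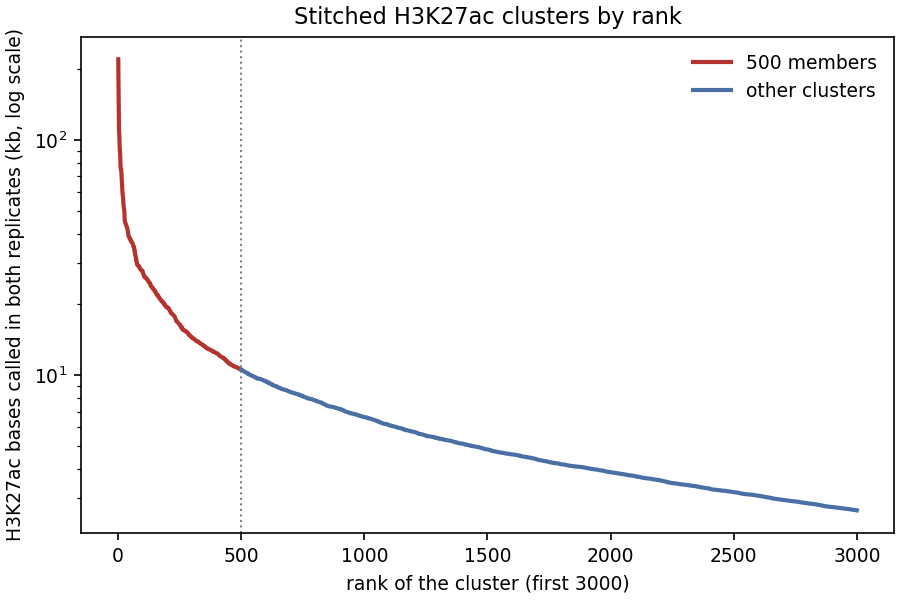
H3K27ac bases called in both replicates (kb, log scale) of clusters by rank, with the 500 members in red and the other clusters in blue. The curve is steep over the first ranks and has no step at the dotted line between rank 500, at 10549 bases, and rank 501, at 10541 bases.

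The limit of 500 is not a break in the data. The cluster at rank 499 (chromosome X, positions 45363569 to 45376765, hg19) held 10550 bases and that at rank 500 (chromosome 8, 81142869 to 81173549) 10549 bases. Just outside, rank 501 (chromosome 20, 57559732 to 57610872) held 10541 bases and rank 502 (chromosome 19, 949009 to 995783) 10527 bases. With both axes scaled to their maxima, the point where the rank curve has a slope of 1 would give 469 clusters of at least 10913 bases. That point is a usual limit for super-enhancers, applied here to called bases and not to signal.

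Membership depended on the H3K27ac library. With clusters built from H3K27ac replicate 1 alone, its top 500 met 68.4% of the members, and from replicate 2 alone 73.0%. Between the single replicates, 261 clusters of the top 500 of replicate 1 (52.2%) met one of replicate 2, and 268 of replicate 2 (53.6%) met one of replicate 1. A stitching gap of 25000 bp met 93.2% of members, one of 5000 bp 76.4%, and ranking by span in place of bases 66.0%.

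The member with the most H3K27ac lay on chromosome 8 (128881404 to 129154731, hg19). Its 93 constituents held 220472 H3K27ac bases, 80.7% of its 273.3 kb span. The next members by rank lay on chromosomes 8 (19223835 to 19609369), 15 (71475964 to 71744827), 2 (36592082 to 36797064) and 6 (151177301 to 151441448), with 172989, 139604, 108444 and 106804 bases. The first of these was also the longest, at 385535 bp, and had the most constituents, 216. The one on chromosome 6 held a constituent of 21041 bp, the widest of any member. An hg19 gene annotation was not used here, so no gene is assigned to a region.

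These 5 members shared high H3K36me3 coverage, meaning the share of constituent bases under a peak. It was lowest in the longest, at 76.6% and 73.4% (replicates 1 and 2), and highest in the one on chromosome 6, at 84.6% and 83.1%. BRD2 coverage in the same members differed widely between them. It was lowest in the member on chromosome 2, at 0.165% and 1.56%, and highest in that on chromosome 6, at 4.98% and 10.9%. H4K5acK8ac was likewise lowest in the chromosome 2 member, at 36.4% and 28.7%, while in the chromosome 15 member it was 70.0% and 64.4%. H3K4me1 in the chromosome 2 member was 74.6% and 94.5%, and H4K5ac was 35.0% and 35.2%.

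**Figure D2:**
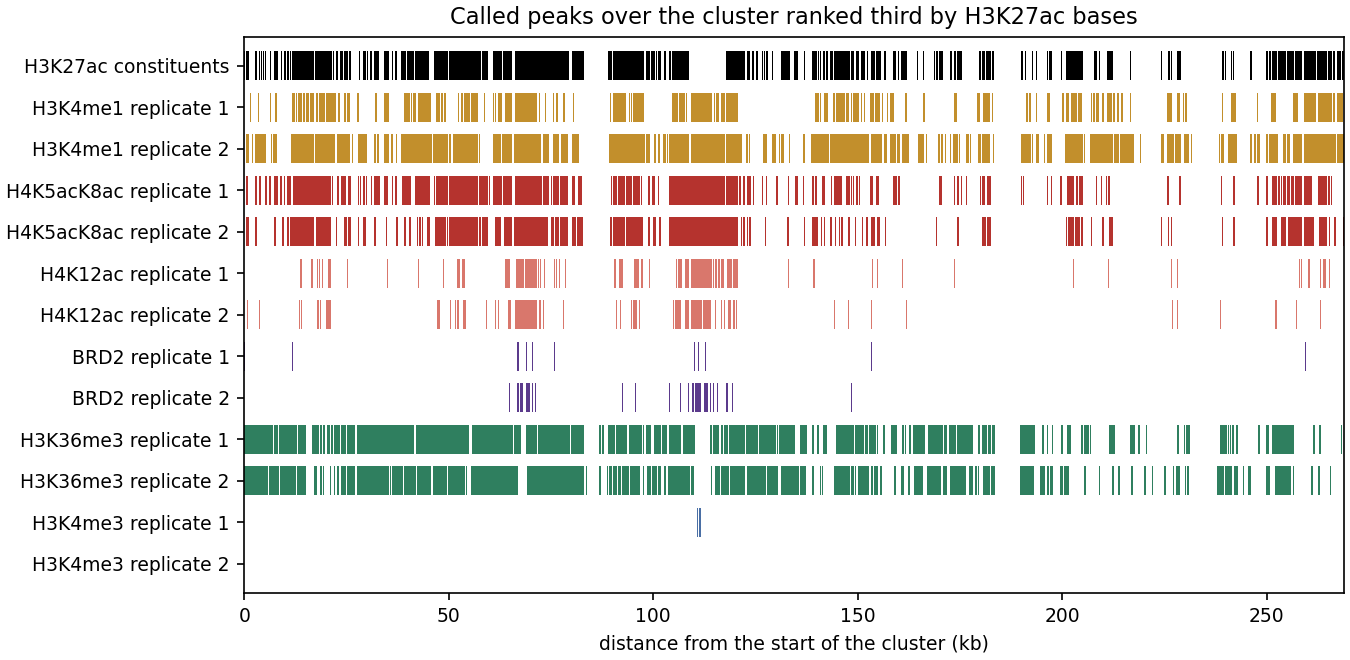
Called peaks over the member on chromosome 15, by distance from its start (kb), with 1 row for the H3K27ac constituents and 1 for each library of 6 targets; each bar is a peak. The 13 and 24 BRD2 peaks of replicates 1 and 2 gather near 60 to 80 kb and 100 to 120 kb, where H4K12ac is also dense, while H3K27ac, H3K4me1 and H3K36me3 run along most of the cluster.

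The map of the chromosome 15 member shows how unevenly BRD2 was placed. Between 60 and 80 kb lay 5 of the 13 BRD2 peaks of replicate 1 and 8 of the 24 of replicate 2. The 10 kb from 110 to 120 kb held another 3 and 9. H3K4me3 of replicate 1 had 2 peaks there and that of replicate 2 none, so the H3K27ac at that place was left out of the constituents by the rule.

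H3K4me1 covered most of the members' H3K27ac. Its coverage of constituents was 66.1% and 87.8% in members and 60.8% and 86.1% in other clusters, a difference of 3.52 ± 2.60 percentage points (SD, n = 2). The 2 libraries thus differed from each other by more than members did from other clusters. All 500 members had an H3K4me1 peak over a constituent in each replicate, where 79.1% and 92.1% of all clusters had one. All of the 500 clusters ranked next had one too, so this was not particular to members. Without H3K27ac and H3K4me1 replicate 2 the difference in coverage was 7.28 points.

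H4 acetylation was also called over more of the members' H3K27ac, by amounts that differed between marks. H4K5acK8ac covered 55.1% and 53.7% of constituent bases in members and 47.6% and 48.3% in other clusters, a difference of 6.41 ± 1.44 points (SD, n = 2). That order rested on the choice of H3K27ac list and of ranking. With clusters from H3K27ac replicate 1 alone and H4K5acK8ac replicate 1 the difference was −0.919 points, and with members ranked by span it was −0.984. Against the 500 clusters ranked next it was 1.48 and 0.351 points in the 2 libraries.

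The single H4 marks ran in the same order. H4K5ac covered 51.4% and 52.3% of the members' constituent bases and 42.8% and 43.1% of the others', a difference of 8.88 ± 0.440 points (SD, n = 2). Without replicate 2 of H3K27ac and H4K5ac that difference was 0.935 points, and against the next 500 clusters 2.30, so the small SD does not carry over to other cluster lists. H4K12ac covered 24.5% and 20.2% in members and 21.4% and 17.5% in other clusters, a difference of 2.95 ± 0.277 points (SD, n = 2). The H4K12ac difference was 1.22 points without replicate 2, 1.99 without replicate 1 and 0.315 against the next 500 clusters. H4K8ac covered 34.6% and 22.2% in members against 32.6% and 16.6%, a difference of 3.84 ± 2.60 points (SD, n = 2). For H4K8ac the next 500 clusters lay on either side of the members, with 35.7% in replicate 1 and 19.1% in replicate 2.

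**Figure D3:**
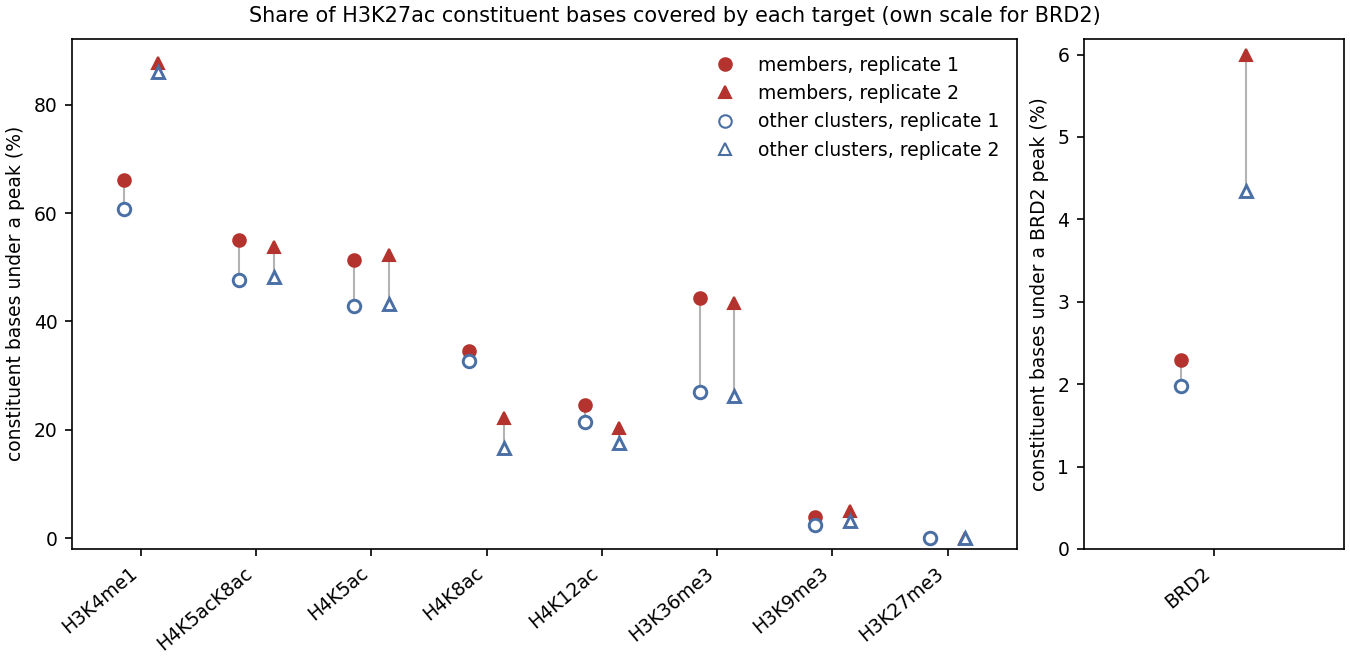
Share of H3K27ac constituent bases under a peak of each target (%), with filled red symbols for members, open blue symbols for other clusters, circles for replicate 1 and triangles for replicate 2; BRD2 has its own scale. H3K36me3 shows the widest separation, 44.4% and 43.4% in members against 26.99% and 26.3%, and the replicates of BRD2, H4K8ac, H4K12ac and H3K4me1 differ by more than members and other clusters do.

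Nearly every member carried each H4 mark somewhere. A peak over a constituent was present for H4K5acK8ac in 498 and 497 members (62.4% and 61.7% of all clusters), for H4K5ac in 499 and 500 (64.1% and 63.1%), for H4K8ac in 498 and 491 (60.5% and 43.7%), and for H4K12ac in 488 and 492 (47.8% and 44%). Large clusters offer more bases to meet, so these shares are not adjusted for size. Of the 500 clusters ranked next, 96.8% and 95.2% had H4K5acK8ac, and 99.2% in each replicate had H4K5ac. H4K8ac was present in 97.8% and 91.8% of them and H4K12ac in 94.4% and 92.6%, so such presence was not particular to members. An H4K5acK8ac peak whose −log10 q reached 5 was present in 476 and 481 members, where 42.6% and 46.8% of all clusters had one. It was present in 446 and 440 of the next 500.

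Within members, the constituents that met all 4 H4 marks were a minority and wide. Wide intervals offer more bases to meet, so the number of marks is not adjusted for width. All 4 H4 marks were called in both lists in 1543 constituents (11.6%), which had a median width of 2106 bp and held 40.2% of the members' H3K27ac bases. None of the 4 was called in both lists in 6823 constituents (51.3%), with a median width of 302 bp and 23.9% of the bases. H3K4me1 was present in both lists in 95.5% of the former and 55.3% of the latter. BRD2 met 29.1% and 48.5% of the former and 1.30% and 0.601% of the latter, which differ in width and are not matched for it. Members' constituents with 1, 2 or 3 of the marks in both lists held 10.35%, 13.3% and 12.2% of the members' bases. In other clusters the constituents with all 4 marks held 23.9% of the bases, and those with none 33.5%.

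BRD2 was found in most members, but over a small share of their H3K27ac. At least 1 BRD2 peak overlapped a constituent of 340 members (68.0%) in replicate 1 and 378 (75.6%) in replicate 2, a mean of 71.8 ± 5.37% (SD, n = 2), where 12.7% and 16.6% of all clusters had one. Of the 500 clusters ranked next, 46.2% and 56.4% had one. Both lists had BRD2 in 293 members (58.6%; 7.66% of all clusters), and neither list in 75 (15.0%; 78.3% of all clusters). Of the stronger BRD2 peaks, those whose −log10 q reached 5, the counts of members with one were 35 members (7.0%; 0.801% of all clusters) and 139 (27.8%; 3.58% of all clusters).

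Per base, BRD2 coverage was low in members and in other clusters, and differed by few percentage points. It covered 2.29% and 5.99% of constituent bases in members and 1.98% and 4.34% in other clusters, a difference of 0.983 ± 0.947 points (SD, n = 2), about as large as its own SD. Without replicate 2 of H3K27ac and BRD2 it was 0.000791 points. Against the next 500 clusters the difference was 0.0541 and 0.422 points. As a ratio of members to other clusters, BRD2 coverage was 1.16 and 1.38. That ratio was 1.16 and 1.11 for H4K5acK8ac, 1.20 and 1.21 for H4K5ac, and 1.06 and 1.34 for H4K8ac. For H4K12ac it was 1.15 and 1.16, and for H3K4me1 1.09 and 1.02. In relative terms the BRD2 difference was thus not smaller than that of most of these marks. The authors' fold enrichment of BRD2 peaks over constituents had medians of 3.09 and 3.83 in members and 3.08 and 3.83 in other clusters.

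Clusters were also ranked by the bases of each mark within their constituents, a total that is bounded by the H3K27ac bases that chose the members, so a mark with high coverage returns much of the same list. Of the 500 clusters with the most BRD2 bases, 193 (38.6%) were members in replicate 1 and 216 (43.2%) in replicate 2. The same count was 361 and 352 for H4K5acK8ac, 327 and 312 for H4K12ac, and 418 and 463 for H3K4me1, in the order of their coverage. Of the 1000 strongest BRD2 peaks away from H3K4me3, by −log10 q, 12.7% and 27.6% lay over members' constituents, against 2.44% and 8.07% of all BRD2 peaks away from H3K4me3. For H4K5acK8ac these were 39.5% and 32.2% of the 1000 strongest against 13.5% and 11.5% of all. For both targets the strongest peaks thus lay in members more often than the list as a whole. Other clusters' constituents held 23.1% and 42.3% of the 1000 strongest BRD2 peaks. They held 1669 and 2826 BRD2 summits, where the lists had 39192 and 22089 BRD2 peaks away from H3K4me3. The rise for BRD2 was therefore not particular to members. For H4K5acK8ac the other clusters' constituents held 53.9% and 60.5% of the 1000 strongest.

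The width of a constituent went with whether it carried BRD2, so shares were also compared within 5 width classes and averaged with the members' class sizes. At equal width BRD2 met 5.22% and 7.42% of the members' constituents and 6.23% and 9.40% of the others', a difference of −1.49 ± 0.678 points (SD, n = 2). In the class under 500 bp the shares were 1.47% and 1.35% in members and 2.17% and 2.38% in other clusters. From 2000 to under 4000 bp they were 18.5% and 32.2% in members and 23.3% and 38.2% in other clusters. In the widest class the order was the other way: of constituents of 4000 bp or more, 49.8% and 69.7% of 432 in members and 41.9% and 63.6% of 198 in other clusters carried BRD2. That class has no upper bound, and constituents reached 21041 bp in members and 8975 bp in other clusters. Widths within it are therefore not matched.

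That order also turned with how constituents were drawn. Joining intervals across gaps of up to 500 bp gave differences of −0.495 and −2.29 points in replicates 1 and 2. With joining up to 1000 bp they were 0.585 and −1.29 points, and up to 2000 bp 3.19 and 1.48 points. The sign of the difference, averaged over width classes, thus depended on the definition of a constituent. With joining up to 2000 bp the median widths were 2165.5 bp in members and 679 bp in other clusters. The class of 4000 bp or more has no upper bound, so joined constituents within it are not matched for width either.

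**Figure D4:**
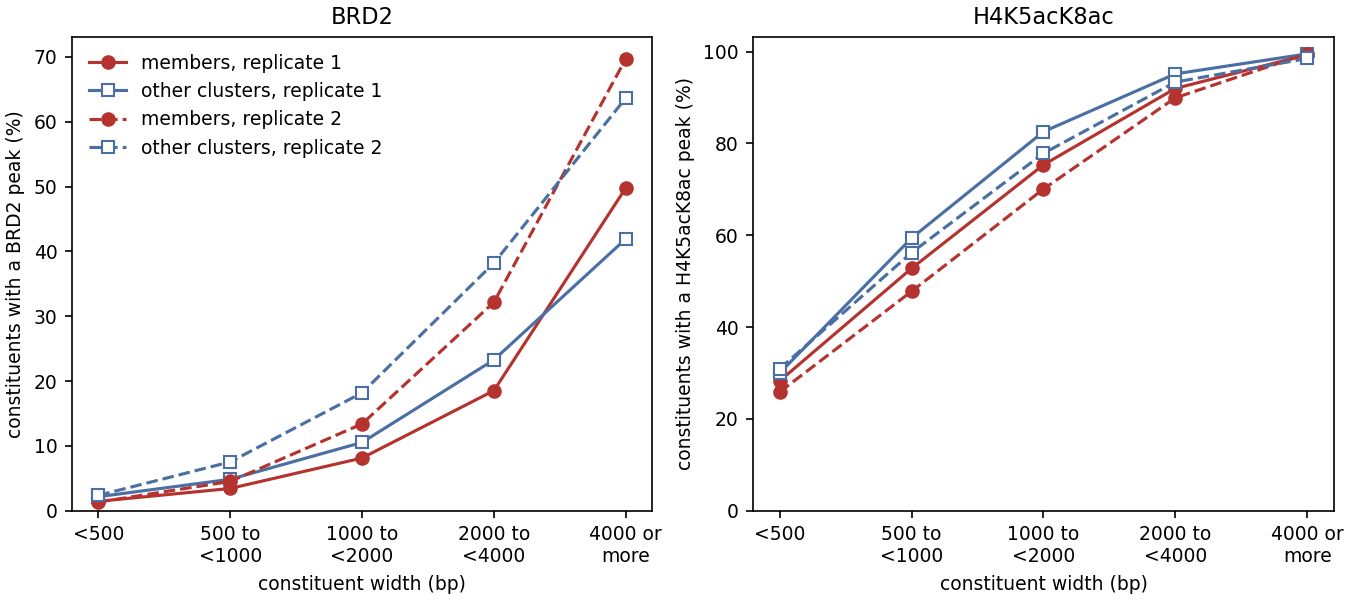
Share of constituents with a BRD2 peak (left) or an H4K5acK8ac peak (right) by constituent width class (bp), for members (red, filled) and other clusters (blue, open), with replicate 1 as solid and replicate 2 as broken lines. Both rise steeply with width, and for BRD2 members lie below other clusters up to 4000 bp and above them in the widest class, at 49.8% and 69.7% against 41.9% and 63.6%. The widest class has no upper bound, so widths within it are not matched.

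At equal width the H4 marks met a smaller share of constituents in members, except H4K8ac of replicate 2. This is the reverse of their order by coverage of bases. H4K5acK8ac met 45.2% and 42.0% of the members' constituents and 48.7% and 47.8% of the others', H4K12ac 26.6% and 24.0% against 32.6% and 29.2%, and H4K5ac 48.7% and 48.3% against 50.4% and 49.7%. H4K8ac differed between its libraries, at 42.1% against 47.1% in replicate 1 and 31.4% against 29.7% in replicate 2. H3K4me1 was also lower in members at equal width, at 64.3% and 85.4% against 66.9% and 87.1%.

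BRD2 in members sat mostly on 1 or a few constituents. The median number of constituents with BRD2 was 1 in each replicate and the highest 9 and 16. The widest constituent carried BRD2 in 210 members (42.0%) and 291 (58.2%), which is 61.8% and 77.0% of the members that had BRD2 at all. Of the 2011 and 3037 BRD2 summits inside member spans, 47.6% and 58.7% lay in constituents, 32.3% and 28.3% near H3K4me3 and 20.1% and 13.0% in gaps. Those near H3K4me3 had the highest median fold enrichment, 3.50 and 4.95.

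Members' constituents with BRD2 in both lists were heavily acetylated on H4. There were 370 of them (2.78%), with a median width of 4175 bp, against 390 bp for the 11984 with BRD2 in neither list. H4K5acK8ac covered 93.2% and 92.6% of the bases of the former and 40.6% and 38.4% of the latter. H4K12ac covered 59.5% and 52.0% against 13.2% and 10.6%. H3K36me3 had the opposite order, with 24.3% and 23.6% against 51.7% and 50.6%. Constituents of other clusters showed the same contrasts, with 765 having BRD2 in both lists and 36541 in neither. There H4K5acK8ac covered 92.0% and 94.4% against 39.5% and 39.7%, and H4K12ac 63.7% and 57.3% against 14.9% and 11.8%. H3K36me3 covered 5.56% and 5.24% against 30.9% and 30.1%.

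The same contrasts were seen among members' constituents of one width class. From 2000 to under 4000 bp, H4K5acK8ac covered 92.0% and 92.6% of the bases of the 97 constituents with BRD2 in both lists and 57.2% and 53.0% of those of the 459 with BRD2 in neither. H4K12ac in that class covered 61.6% and 55.1% against 17.6% and 15.1%, and H3K36me3 13.3% and 14.2% against 49.9% and 48.5%.

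BRD2 summits in members lay closer to H4K12ac summits than to those of H4K5acK8ac, H3K27ac or H3K4me1. The median distance to the nearest H4K12ac summit was 290 and 237 bp in members, to H4K5acK8ac 473 and 637 bp, to H3K27ac 431 and 1137 bp, and to H3K4me1 410 and 690 bp. In other clusters the first 3 were 241 and 188 bp, 270 and 202 bp, and 179 and 238 bp. Each listed peak has 1 summit, and the distances are not adjusted for the width or number of peaks. Median peak widths were 288 and 275 bp for H4K12ac and 470 and 582 bp for H4K5acK8ac. For H3K27ac they were 402 and 501 bp, and for H3K4me1 440 and 562 bp. Closer placement of BRD2 to H4K12ac signal cannot be read from these distances. H4K5acK8ac summits were sparser per base in members, at 57.4 and 46.7 per 100 kb of constituents against 71.2 and 62.0, while BRD2 summits were denser, at 8.57 and 16.0 against 7.61 and 12.9.

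Across the 500 members, BRD2 coverage varied with H4 acetylation. Spearman's rho of BRD2 coverage with that of the same-numbered library was 0.642 and 0.739 for H4K12ac, 0.590 and 0.786 for H4K5ac, and 0.457 and 0.729 for H4K5acK8ac. It was −0.0267 and −0.149 for H3K4me1, and −0.297 and −0.440 for H3K36me3. These are descriptions over members, which share libraries, depth and the H3K27ac lists that define their constituents. Between replicates, rho over members was 0.677 for BRD2, 0.914 for H4K5acK8ac and 0.985 for H3K36me3.

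The 3 members with the most bases under BRD2 of both replicates differed in H3K36me3. The first, on chromosome 10 (21558000 to 21731524, rank 10), had 4976 such bases, BRD2 coverage of 8.11% and 22.6%, and 37 and 53 BRD2 peaks in its span. H4K5acK8ac covered 86.9% and 92.2% of its constituents, H4K12ac 48.0% and 42.1%, and H3K36me3 only 2.81% and 4.45%. The second, on chromosome 20 (48955111 to 49077764, rank 51), had 3648 such bases and BRD2 coverage of 12.6% and 29.6%. It had H4K5acK8ac over 92.6% and 94.6%, H4K12ac over 69.7% and 63.2%, and H3K36me3 listed over 0% of its constituents in each library. The third was the member on chromosome 6 described above, also with 3648 such bases, which in contrast had H3K36me3 over 84.6% and 83.1%.

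In 31 members (6.2%) no BRD2 peak of either list lay anywhere in the span, where 71.5% of all clusters had none. These had a median of 13253 H3K27ac bases and a widest constituent of 2879 bp at the median, against 19357 bases and 5571 bp in the 293 members with BRD2 over a constituent in both lists. H4K12ac covered 10.5% and 8.59% of their constituents and 28.9% and 24.1% in the 293. H3K4me1 covered 69.1% and 93.6% against 65.0% and 86.7%.

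The 3 largest members without BRD2 differed among themselves. The first, on chromosome X (45602175 to 45702928, rank 35), held 42858 H3K27ac bases, with H4K5acK8ac over 37.0% and 28.2% of its constituents and no H4K12ac in either list. The second, on chromosome 1 (39594834 to 39681749, rank 46), held 38437 bases, with H4K5acK8ac over 72.5% and 66.4% and H4K12ac over 16.2% and 13.5%. The third, on chromosome 9 (112861319 to 112915248, rank 164), held 21592 bases, with H4K5acK8ac over 27.2% and 19.7% and H4K12ac over 8.50% and 2.60%. All 3 had H3K4me1 over 57.9% or more of their constituents in replicate 1 and over 97.3% or more in replicate 2.

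With the full lists, H3K36me3 had the largest difference in coverage between members and other clusters. It covered 44.4% and 43.4% of constituent bases in members and 26.99% and 26.3% in other clusters, a difference of 17.2 ± 0.254 points (SD, n = 2). When each list was limited to its 10000 strongest peaks, the marks ranked otherwise, with 8.21 points for H3K36me3, 17.1 for H3K4me1, 10.7 for H4K5acK8ac and 8.49 for H4K5ac. Against the next 500 clusters the difference was 12.8 and 12.7 points. At equal width it met 57.2% and 56.3% of the members' constituents and 35.4% and 34.5% of the others'. A peak lay over a constituent of 432 and 424 members, where 38.3% and 37.6% of all clusters had one. In gaps between constituents it covered 41.8% and 41.0% in members and 33.9% and 33.3% in other clusters, so the difference there was smaller.

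Members spread over the whole range of H3K36me3. By the mean coverage of both replicates, 145 members had under 10%, 160 had 10 to under 50%, 159 had 50 to under 90% and 36 had 90% or more. BRD2 coverage was lower in each successive class, from 3.81% and 10.4% in the first to 0.685% and 1.33% in the last. H4K5acK8ac ran from 81.0% and 79.5% to 25.9% and 25.7%. H3K4me1 ran the other way, from 55.9% and 81.1% to 71.5% and 90.1%. The other clusters showed the same order for H4K5acK8ac, from 63.3% and 65.1% to 11.2% and 9.36%, but not for H3K4me1, which was 47.7% and 76.3% in their last class and 61.6% and 87.2% in their first.

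**Figure D5:**
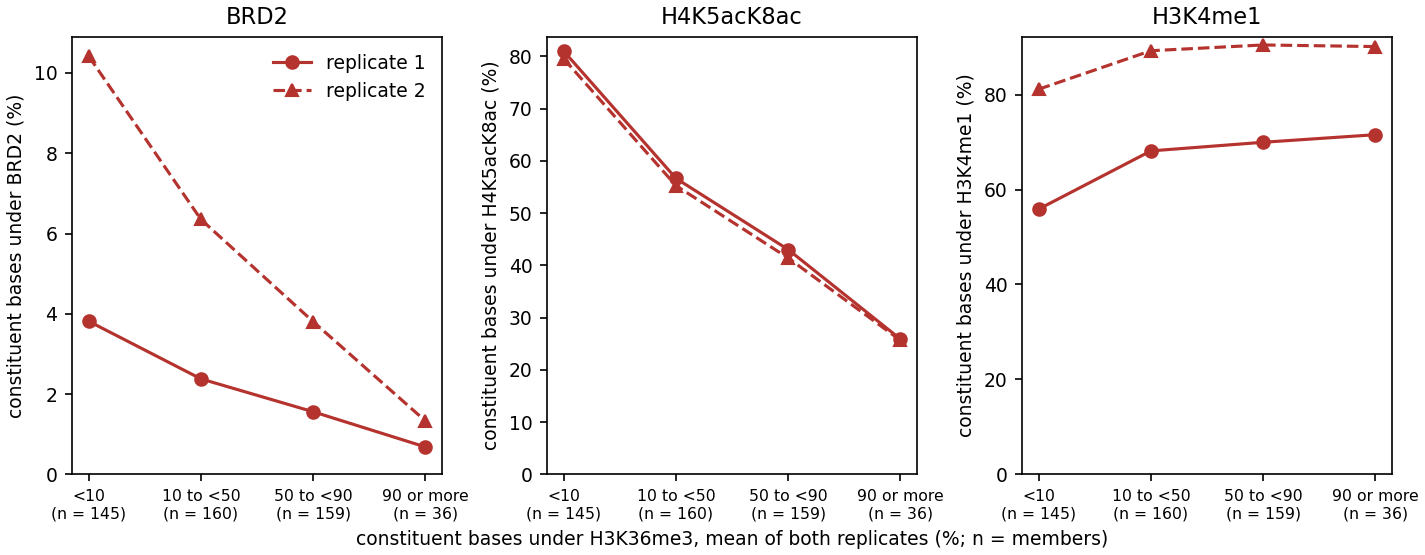
Constituent bases under BRD2, H4K5acK8ac and H3K4me1 (%) in 4 classes of members by H3K36me3 coverage (mean of both replicates, %), with replicate 1 as circles and solid lines and replicate 2 as triangles and broken lines. BRD2 and H4K5acK8ac are lower in each successive class, H4K5acK8ac from 81.0% and 79.5% to 25.9% and 25.7%, while H3K4me1 is lowest in the first class.

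The same held between constituents of members compared at equal width. Of the 6947 constituents with H3K36me3 in both lists, BRD2 met 4.64% and 5.56%, and of the 5153 with it in neither, 7.89% and 13.2%. H4K5acK8ac met 31.1% and 27.2% of the former and 67.4% and 65.2% of the latter. H3K4me1 met 66.4% and 86.5% against 62.5% and 84.3%.

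H3K36me3 thus moved with the other marks and was commoner in members, so the comparisons were also made with and without it. It was present in both lists in 52.3% of the members' constituents and 31.1% of the others'. Among constituents with H3K36me3 in both lists, H4K5acK8ac at equal width was higher in members, by 6.30 and 5.50 points. Among those with it in neither list it was also higher in members, by 3.66 and 0.938 points. This is the opposite sign to the pooled difference of −3.50 and −5.84 points at equal width. For BRD2 the differences were 0.309 and 0.486 points with H3K36me3, and −0.677 and −0.834 without it. H3K4me1 was 4.58 and 3.55 points higher in members with H3K36me3 and lower without it, by −8.53 and −5.69 points.

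H3K9me3 was also called over more of the members' H3K27ac, at a low level. It covered 3.94% and 5.08% of constituent bases in members and 2.49% and 3.20% in other clusters, and lay over a constituent of 238 and 260 members (8.82% and 9.89% of all clusters). The next 500 clusters were close to members, with H3K9me3 over 3.52% and 4.69% of constituent bases. At equal width it met 7.13% and 8.30% of constituents in members and 6.65% and 8.02% in the next 500. It lay over a constituent of 163 and 180 of the next 500. In 216 members, 748 constituents (5.63%) had it in both lists, and in 781 other clusters 1105 constituents (2.77%) did. The 748 were compared at equal width with the 11991 constituents of members that had it in neither list. BRD2 met 16.7% and 23.4% of the 748 against 10.2% and 14.7%, and H4K5acK8ac 78.1% and 73.1% against 55.2% and 52.2%. H3K4me1 had the opposite order, with 45.3% and 61.9% against 75.8% and 91.4%, and H4K12ac hardly differed, with 40.5% and 37.2% against 39.8% and 37.3%. Other clusters, not matched for width, had the same order for BRD2, H4K5acK8ac and H3K4me1. There BRD2 was in both lists in 4.89% of constituents with H3K9me3 in both lists and 1.76% of those with it in neither. For H4K5acK8ac these were 52.4% and 33.0%, and for H3K4me1 34.3% and 63.4%.

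H3K27me3 was hardly called in members. It lay over a constituent of 5 and 6 members, where 0.39% and 0.514% of all clusters had one. It covered 0.0149% and 0.0141% of the members' constituent bases and 0.0669% and 0.0895% of the others'. In the next 500 clusters it covered 0.00566% and 0.0141%, so the low level was not particular to members.

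Along the ranks inside the 500, BRD2 was commoner in larger members but no denser. In the 50 largest, 45 and 46 members had BRD2 over a constituent, and in the 50 smallest 22 and 32. BRD2 coverage was 1.99% and 5.55% in the 50 largest and 1.76% and 5.60% in the 50 smallest, and between them it reached 2.99% and 7.35%. H4K5acK8ac coverage was 52.4% and 51.0% in the 50 largest and 56.6% and 54.8% in the 50 smallest. H3K36me3 differed most between these ends of the ranking, at 55.5% and 53.9% against 29.3% and 29.5%.

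The share of constituent H3K27ac bases that members held differed between chromosomes. Members held 50.3% of the constituent H3K27ac bases of chromosome 8, 49.5% of chromosome 10, 48.4% of chromosome 20 and 43.4% of chromosome 15. That share of bases was lowest on chromosomes X, at 21.2%, 18, at 22.0%, and 4, at 22.2%. By number of clusters the order was not the same. Members were 5.77% of the clusters of chromosome 20, 4.89% of chromosome 8 and 4.76% of chromosome 10. On chromosome 15 they were 3.31%, beside 3.42% over all. The lowest were chromosomes 13, at 1.42%, and X, at 1.80%.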

How the data were processed

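Peaks were used as the authors deposited them, as 10-column narrowPeak lists in hg19, 1 per library. BWA and MACS2 are named in the submitters' processing notes; their versions, settings and control are not given in the sources used here. The deposited lists give for each peak a fold enrichment (a ratio to local background), −log10 p and −log10 q, a score that was not used, and a summit. They were used within 1 list at a time, to rank or select its peaks.

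Overlap meant at least 1 bp. Coverage is the percent of constituent bases under peaks of a library. Width classes start at 0, 500, 1000, 2000 and 4000 bp. Python 3.11.15, numpy 2.4.6, pandas 2.3.3, scipy 1.17.1 and matplotlib 3.10.9 were used, and the interval and equal-width functions were tested on simulated data. Groups and replicate numbers came from the sample titles.

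The members and lists were chosen with earlier results of these data known. The regions named were the 5 members with most H3K27ac bases, the 3 with most bases under BRD2 of both replicates, the 3 largest without BRD2 in their span, the longest, the one with most constituents, and the 2 clusters on each side of the limit. The splits of constituents by BRD2, H3K36me3, H3K9me3 and number of H4 marks were chosen after values were seen. Alternatives to the stitching gap, promoter distance, number of members, ranking, comparison group, peak strength and replicate were computed. No reference sequence of the build was used here, and the input was left out.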

Additional observations from a re-analysis of the deposited data

How the results depend on the processing

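Of 78 alternative values for the 5 main results, 51 moved by less than the SD between libraries, 24 moved further and 3 changed sign; the cause was not tested. BRD2 coverage, members minus other clusters (0.983 points), was 0.000791 to 1.13 with either replicate left out and kept its sign in 15 of 15 alternatives. H4K5acK8ac coverage (6.41) was 10.7 and 4.09 with stitching gaps of 5000 and 25000 bp, 4.93 for 250 members, 0.914 against the next 500 clusters, 10.7 for the 10000 strongest peaks, −0.984 when ranked by span, and −0.919 to 8.21 with either replicate left out. H3K4me1 coverage (3.52) was 0.747 for H3K27ac peaks with −log10 q of at least 5, 17.1 for the 10000 strongest peaks, and 1.32 to 7.28 with either replicate left out. The BRD2 share at equal width (−1.49) was −0.249 for BRD2 peaks with −log10 q of at least 5, −0.366 for the 10000 strongest, and −0.939 to −0.737 with either replicate left out. In alternatives chosen after seeing the data it was −0.350 and 2.34 with constituents joined across 1000 and 2000 bp, and −2.32 for constituents of at least 500 bp. The share of members with BRD2 (71.8%) was 78.4% with a gap of 25000 bp, 62.1% ranked by span, 82.4% for 250 and 61.55% for 1000 members, 17.4% for BRD2 peaks with −log10 q of at least 5, 18.9% for the 10000 strongest, and 77.0% to 79.4% with either replicate left out. H3K36me3, H4K5ac, H4K8ac and H4K12ac coverage were higher in members in 15 of 15 alternatives each, but by 8.21 to 21.4, 0.935 to 11.8, 1.03 to 5.13 and 0.315 to 4.13 points.

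With the replicate block, in which clusters came from the H3K27ac list of the same number as the mark library, H4K5acK8ac coverage differed by 3.64 points, BRD2 by 0.564 and H3K4me1 by 4.30, the BRD2 share at equal width by −0.838, and 78.2% of members had BRD2. Deviations of same-numbered libraries correlated between −0.0502 and 0.0234 over 15 pairs of targets, 0 of them over 0.1. No shared deviation was thus seen in the lists. With 2 libraries per target this cannot show whether same-numbered libraries were prepared together. Depth is unknown, so peaks too weak to be called limit every share.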
